A study of Mus musculus with 12 samples.

Results

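The genes described here are 8 liver-enriched transcription factors that set the identity of the hepatocyte, the main cell type of the liver: Hnf4a, Foxa1, Foxa2, Foxa3, Onecut1, Onecut2, Nr5a2 and Prox1. They were taken by gene symbol from a table of 54532 genes, and all 8 passed the filter on low values. Liver RNA was profiled by RNA-seq in 12 libraries, 3 of them after a sham operation and 3 at each of 3 h, 6 h and 12 h after surgical removal of 70% of the liver. All mice were wild-type C57/BL6J. The age and sex of the mice and the time between sham surgery and collection are not given in the sources used here. The question behind the comparisons is how liver gene expression changes in the preparatory phase of regeneration, before cells divide.

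HNF4A is a nuclear receptor that binds as a homodimer to the promoters and enhancers of many genes of the differentiated hepatocyte, among them those of apolipoproteins, clotting factors and bile acid enzymes. FOXA proteins are forkhead factors that can bind DNA packed in nucleosomes, ONECUT proteins carry a cut domain and a homeodomain, NR5A2 (also called LRH-1) is a nuclear receptor of bile acid and cholesterol metabolism, and PROX1 is a homeodomain protein of hepatocytes and lymphatic endothelium that acts mostly as a corepressor. These factors bind each other's regulatory regions in adult liver, and resection of the rodent liver is the standard model of how differentiated hepatocytes re-enter the cell cycle while they go on working.

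Hnf4a rose 2.10-fold at 3 h and 1.78-fold at 6 h over sham, and at 12 h it overlapped sham again, through sham replicate 1 alone. Foxa1 fell at 3 h and 6 h, to 0.593 and 0.551 of the sham level, and at 12 h it no longer differed from sham by the test. Onecut2 rose 1.75-fold at 12 h. Foxa2, Foxa3, Onecut1, Nr5a2 and Prox1 did not pass the test in any of the 6 pairwise comparisons, and for the last 4 of them the sham libraries disagreed with each other by 1.93-fold to 6.87-fold.

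Levels are FPKM, that is, fragments per kilobase of transcript scaled to library size, which allows genes of different length to be compared, given as mean ± SD over 3 libraries. Differences are on the log2 scale with their standard error (SE), as fitted by edgeR to the counts of all 12 libraries. A gene is said to have risen or fallen where its p adjusted over all 11451 tested genes was under 0.05. Library totals lay between 15573405 and 17199639 counts. Nothing in the labels states that each library is its own mouse, so the p-values measure the spread between libraries. The sham libraries were less alike than the others: the lowest correlation across genes with another library of the group was 0.950 for replicates 1 and 3 and 0.956 for replicate 2, against 0.978 or more for every library after resection. Sham replicate 1 stands apart in its mitochondrially encoded counts, 11.9% against 6.26% and 5.52% in the other sham libraries. For 6 h replicate 3 the time tag reads 7 h, and the title was followed. In RNA of whole liver, fewer cells of a type and less RNA per cell cannot be told apart.

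**Figure D1:**
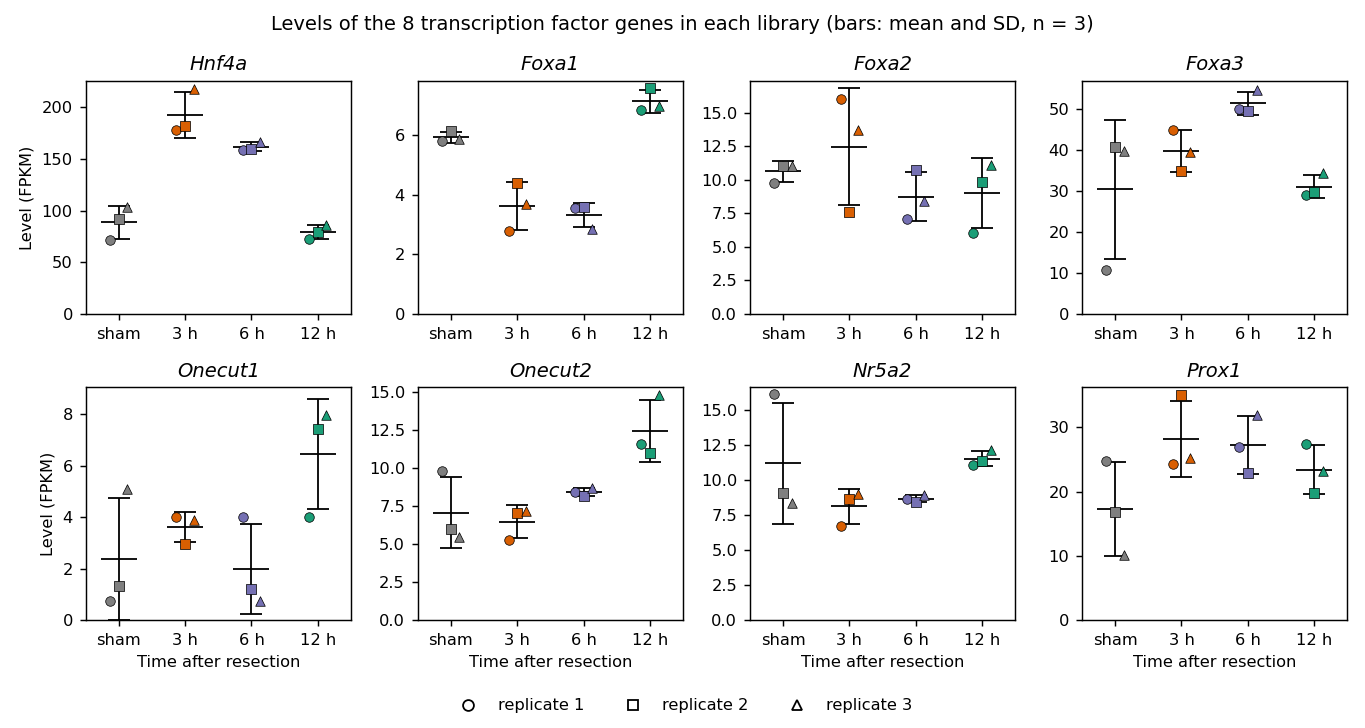
Level of each of the 8 genes in FPKM (y axis, from 0) in the sham, 3 h, 6 h and 12 h libraries, with replicates 1, 2 and 3 as circles, squares and triangles and bars for the mean and SD of 3 libraries. Hnf4a at 3 h and 6 h lies above every sham and 12 h library and Foxa1 lies below them, while Foxa3, Onecut1, Nr5a2 and Prox1 scatter most within sham.

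Hnf4a (ENSMUSG00000017950) spans chr2:163506808-163572910 on the plus strand of GRCm38, the build of all gene positions given here, and was the most abundant of the 8 genes in every group. In sham its level was 71.5, 91.7 and 103 FPKM in replicates 1, 2 and 3. The 3 h values were 178, 182 and 218 FPKM, and the 6 h values 159, 159 and 166 FPKM. At 12 h it was 72.1, 79.4 and 86.2 FPKM. All libraries at 3 h and 6 h thus lie above all sham and 12 h libraries. Sham and 12 h overlap through sham replicate 1 alone, and every 12 h library lies below sham replicates 2 and 3.

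Against sham, Hnf4a rose by 1.07 ± 0.15 at 3 h (edgeR adjusted p = 0.000257), a 2.10-fold rise with a 95% interval of 0.75 to 1.40 on the log2 scale. It rose by 0.83 ± 0.15 at 6 h (edgeR adjusted p = 0.000764). The 6 h and 3 h levels differed by -0.24 ± 0.15, which is not called (edgeR adjusted p = 0.363). From 6 h to 12 h Hnf4a fell by 1.01 ± 0.15 (edgeR adjusted p = 0.000393), and at 12 h it stood at -0.18 ± 0.15 from sham (edgeR adjusted p = 0.406). Leaving out single libraries, this 12 h difference ran from -0.31 to -0.05 and was never called (lowest edgeR adjusted p = 0.0528). The rises were 0.94 at 3 h and 0.70 at 6 h without sham replicate 1, and 0.88 and 0.51 when libraries were scaled by their totals, with the call kept each time. The 6 h rise was 0.81 without 6 h replicate 3, the library tagged 7 h (edgeR adjusted p = 0.00366). Of the genes that overlap it, Hnf4aos, on the other strand, had 33 to 138 counts per library against 5869 to 15109 for Hnf4a, and the snRNA gene Gm25881 had at most 7. Hnf4aos was at 6.14 ± 2.06 FPKM in sham and 2.88 ± 0.285 at 6 h, a fall of 1.12 ± 0.30 (edgeR adjusted p = 0.0111). Whether counting used the strand is not given in the sources used here, so reads in the overlap may belong to either gene.

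Hnf4a has an upstream promoter, used in fetal liver and in other organs, and a downstream promoter, used mainly in adult hepatocytes. The gene counts add up both kinds of transcript, so the rise cannot be assigned to a promoter. Both promoter windows in RefSeq (GRCm38.p6, 250 bases before to 50 after the transcript start, 5′ to 3′ on the gene's strand) are shown because Hnf4a had the smallest adjusted p of the 8 genes over the 4 groups, with matches to the searched motifs in capitals.
Hnf4a upstream window, chr2:163506607-163506906, plus strand: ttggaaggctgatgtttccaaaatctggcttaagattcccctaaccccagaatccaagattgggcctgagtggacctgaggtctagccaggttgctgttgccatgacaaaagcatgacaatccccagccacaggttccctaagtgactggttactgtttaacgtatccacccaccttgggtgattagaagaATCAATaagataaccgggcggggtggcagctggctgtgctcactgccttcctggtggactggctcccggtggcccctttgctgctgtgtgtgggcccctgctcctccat
Hnf4a downstream window, chr2:163546905-163547204, plus strand: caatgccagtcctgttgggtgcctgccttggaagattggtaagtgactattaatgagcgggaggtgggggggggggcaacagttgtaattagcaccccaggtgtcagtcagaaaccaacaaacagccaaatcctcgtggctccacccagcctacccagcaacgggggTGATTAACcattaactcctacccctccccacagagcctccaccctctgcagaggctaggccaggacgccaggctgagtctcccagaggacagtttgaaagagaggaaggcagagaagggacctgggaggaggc
In the upstream window the capitals are ATCAAT, the reverse complement of the ONECUT motif ATTGAT, 59 bases before the start. In the downstream window they are TGATTAAC, the reverse complement of the HNF1 motif GTTAATNA, 83 bases before the start. Among all 32851 mouse windows of 300 bases, 7.54% held ATTGAT and 2.54% held GTTAATNA on either strand. Such a match is a run of letters and not evidence of binding.

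Foxa1 (ENSMUSG00000035451, chr12:57540628-57546916, minus strand, GRCm38) went the other way. In sham it was at 5.78, 6.12 and 5.86 FPKM, which is the tightest sham group of the 8 genes. At 3 h it was at 2.78, 4.38 and 3.68 FPKM and at 6 h at 3.55, 3.57 and 2.86 FPKM, all below every sham library. At 12 h it was at 6.85, 7.57 and 6.97 FPKM, all above every sham library. The fall was 0.76 at 3 h (log2 difference -0.76 ± 0.17, edgeR adjusted p = 0.0057) and 0.86 at 6 h (-0.86 ± 0.17, edgeR adjusted p = 0.00139). Between 6 h and 12 h Foxa1 rose by 1.12 ± 0.17 (edgeR adjusted p = 0.000421), a 2.17-fold rise. At 12 h it was 0.26 ± 0.16 from sham, a difference without a call (edgeR adjusted p = 0.26) although the groups did not overlap. Leaving out sham replicate 1, the falls were -0.78 and -0.88, and without 6 h replicate 3 the 6 h fall was -0.76 (edgeR adjusted p = 0.00877). The counts behind Foxa1 are low, 129 to 460 per library.

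The promoter window of Foxa1 is shown because Foxa1 moved opposite to Hnf4a in this time course.
Foxa1 window, chr12:57546062-57546361, minus strand: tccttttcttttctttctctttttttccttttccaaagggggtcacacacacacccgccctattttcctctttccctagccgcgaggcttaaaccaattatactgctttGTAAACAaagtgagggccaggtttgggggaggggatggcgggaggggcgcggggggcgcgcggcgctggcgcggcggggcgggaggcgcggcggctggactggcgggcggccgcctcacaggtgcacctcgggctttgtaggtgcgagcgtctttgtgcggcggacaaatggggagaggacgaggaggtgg
Its capitals are GTAAACA, the reverse complement of the forkhead motif TGTTTAC that FOXA proteins themselves bind, 141 bases before the RefSeq transcript start. The whole window lies inside the Foxa1 span given above, which begins further upstream. The motif TGTTTAC was present in 3.65% of all mouse windows. The other letters searched in the windows of 7 of the 8 genes, on both strands, were TATTTAC for forkhead factors, ATCGAT for ONECUT, CAAAGTCCA, CAAAGTTCA and CAAGGTCCA for HNF4, CAAGGTCA for HNF4 and NR5A2 alike, CAAGGCCA for NR5A2, TTGCNNAA for C/EBP, TTCNNNGAA for STAT3 and CACGTG for the E-box. They occurred in 3.04%, 0.925%, 0.475%, 0.39%, 0.262%, 1.56%, 2.4%, 10.8%, 8.3% and 7.15% of all windows, in that order. The windows of Foxa3 and Prox1 held none of the letters searched. One Foxa2 window held ATTGAT, the Onecut1 window held CACGTG, and the 2 Nr5a2 windows held a GTTAATNA and a TTGCNNAA match.

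Foxa2 (ENSMUSG00000037025, chr2:148042877-148046969, minus strand) is the FOXA gene that is also tied to glucose and lipid metabolism in the fasted liver. Its sham level was 9.76, 11.1 and 11.1 FPKM. At 3 h it was 16.1, 7.62 and 13.7 FPKM, at 6 h 7.11, 10.7 and 8.39 FPKM, and at 12 h 6.07, 9.84 and 11.1 FPKM. Every group after resection overlaps sham. Foxa2 differed from sham by 0.19 at 3 h (95% interval -0.38 to 0.76), by -0.31 at 6 h (-0.89 to 0.27) and by -0.25 at 12 h (-0.83 to 0.32). The 6 h interval still includes a fall of the size found for Foxa1 at 6 h.

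Foxa3 (ENSMUSG00000040891, chr7:19013284-19023538, minus strand), a FOXA gene of adult liver that is dispensable for liver development, was the most abundant FOXA transcript. It was at 10.7, 40.7 and 39.8 FPKM in sham, with replicate 1 far below the others. At 3 h it was at 45.0, 34.9 and 39.5 FPKM, and at 6 h at 50.1, 49.6 and 54.7 FPKM, above every sham library. At 12 h it was at 29.1, 29.9 and 34.4 FPKM. With all sham libraries the differences from sham were 0.34 ± 0.34, 0.73 ± 0.34 and 0.017 ± 0.34 at 3 h, 6 h and 12 h, and none passed the test. When sham replicate 1 was left out they were -0.06, 0.32 and -0.39, and the last was then called (edgeR adjusted p = 0.0254). The small 12 h difference also turned sign with library totals (-0.02) and without 12 h replicate 3 (-0.06). With no filter on low values the 6 h difference of 0.75 was called (edgeR adjusted p = 0.00057). That difference was close to the 0.73 above and comes from the same libraries, so its smaller p-value comes from the unfiltered fit. Between 12 h and 6 h, which share no library with sham, Foxa3 differed by -0.71 ± 0.34 with no overlap, but was not called (edgeR adjusted p = 0.149). It was called with no filter and in a fit of only those 6 libraries (edgeR adjusted p = 0.000886 and 0.0013). The start of Sympk lies 839 bases from that of Foxa3, on the other strand.

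**Figure D2:**
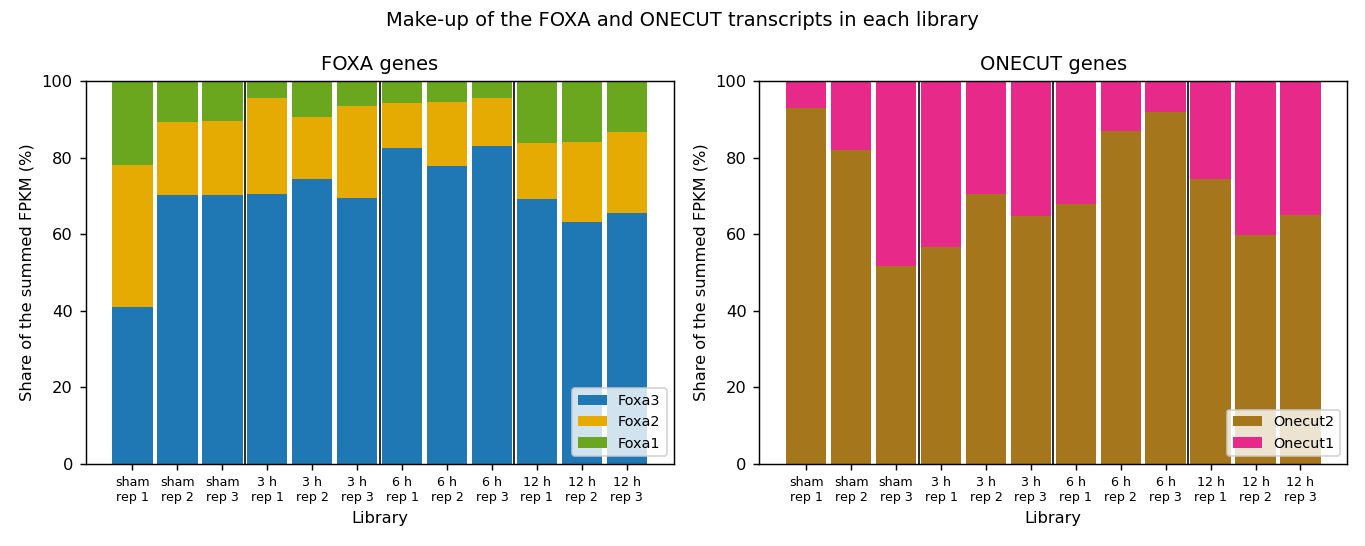
Share of each gene in the summed FPKM of the FOXA genes (left) and of the ONECUT genes (right), in percent (y axis), for each of the 12 libraries (x axis), with vertical lines between groups. Foxa1 (top segment, left) is narrowest in the 3 h and 6 h libraries, and the ONECUT shares vary within sham as widely as between groups.

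The mix of FOXA transcripts differed between the early time points and the other groups. The summed level was 47.0 ± 17.9 FPKM in sham, 55.9 ± 8.53 at 3 h, 63.6 ± 2.63 at 6 h and 47.2 ± 5.25 at 12 h, with the 6 h libraries (60.8 to 66.0 FPKM) above every sham library (26.3 to 57.9). Foxa1 made up 10.3% to 22.0% of it in sham, between 4.35% and 9.33% at 3 h, between 4.33% and 5.84% at 6 h and between 13.3% and 16.3% at 12 h. All libraries at 3 h and 6 h were thus below all of those in sham and at 12 h. Foxa3 made up 40.9% to 70.3% in sham, between 69.4% and 74.4% at 3 h, between 77.7% and 83.0% at 6 h and between 63.2% and 69.2% at 12 h. The 6 h shares of Foxa3 were the highest of the series, and the sham shares without replicate 1 were 70.2% and 70.3%. These shares are descriptions and were not tested.

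Onecut1 (ENSMUSG00000043013, chr9:74861921-74891781, plus strand), or HNF6, acts in hepatocyte and bile duct development and in the daily cycle of liver lipid genes. It was the most variable of the 8 genes. Its sham level was 0.744, 1.32 and 5.11 FPKM. At 3 h it was 4.02, 2.96 and 3.89 FPKM, at 6 h 4.01, 1.23 and 0.770 FPKM, and at 12 h 4.0, 7.43 and 7.96 FPKM. Only the 3 h libraries agree closely, and sham and 6 h each hold a library several times above the lowest. Onecut1 differed from sham by 1.41 ± 0.62 at 12 h (edgeR adjusted p = 0.108), and at 12 h from 6 h by 1.71 ± 0.64 (edgeR adjusted p = 0.0674). Without sham replicate 3, the highest sham library, the differences from sham were 1.77 at 3 h and 2.63 at 12 h and both were called (edgeR adjusted p = 0.0419 and 0.00643). Without 6 h replicate 1 the difference of 12 h from 6 h was 2.70 and was called (edgeR adjusted p = 0.0165). With no filter both differences were called with all libraries kept (1.39 and 1.66, edgeR adjusted p = 3.41e-09 and 2.34e-12), and that of 12 h from 6 h was called with library totals (1.98, edgeR adjusted p = 0.036). The no-filter differences were close to the 1.41 and 1.71 above and come from the same libraries, whose groups overlap. Their far smaller p-values thus come from the unfiltered fit and are not a measure of the spread between these libraries. Onecut1 had 43 to 585 counts per library.

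Onecut2 (ENSMUSG00000045991, chr18:64340364-64398488, plus strand), which overlaps with Onecut1 in liver development, was steadier. It was at 9.77, 5.97 and 5.48 FPKM in sham, at 5.27, 7.03 and 7.16 FPKM at 3 h and at 8.46, 8.17 and 8.69 FPKM at 6 h. At 12 h it was at 11.6, 11 and 14.8 FPKM, above every other library of the series. The 12 h rise over sham was 0.81 ± 0.21 (edgeR adjusted p = 0.0106), a 1.75-fold rise, and that over 3 h was 0.97 ± 0.21 (edgeR adjusted p = 0.0032). Against 6 h the difference was 0.58 ± 0.21 and just missed the threshold (edgeR adjusted p = 0.0559), while library totals, no filter, DESeq2 and a fit of only those 6 libraries each called it. The 12 h rise was 1.10 without sham replicate 1, the highest sham library, and without 12 h replicate 3 it was 0.67 and lost its call (edgeR adjusted p = 0.0561). At 6 h Onecut2 differed from sham by 0.23 ± 0.20 (edgeR adjusted p = 0.423), and by 0.53 with a call when sham replicate 1 was left out (edgeR adjusted p = 0.0149). The summed level of the ONECUT genes was 9.46 ± 1.88 FPKM in sham, 10.1 ± 0.889 at 3 h, 10.4 ± 1.76 at 6 h and 18.9 ± 3.61 at 12 h. The 12 h sums of 15.6 to 22.7 FPKM lie above all others.

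Nr5a2 (ENSMUSG00000026398, chr1:136842571-136960448, minus strand) was at 16.1, 9.04 and 8.36 FPKM in sham. It was at 6.70, 8.64 and 9.03 FPKM at 3 h, at 8.62, 8.42 and 8.95 FPKM at 6 h and at 11.1, 11.3 and 12.1 FPKM at 12 h. The 12 h libraries lie above all 3 h and 6 h libraries, while sham replicate 1 lies above all others. Nr5a2 differed from sham by -0.50 ± 0.21 at 3 h (edgeR adjusted p = 0.109), -0.39 ± 0.21 at 6 h (0.167) and 0.035 ± 0.21 at 12 h (0.919). These values without sham replicate 1 were -0.15, -0.04 and 0.39, and the 12 h rise was then called (edgeR adjusted p = 0.0229). Without sham replicate 3 the 3 h value was -0.67 and was called (edgeR adjusted p = 0.0364). From 3 h to 12 h the difference was 0.53 ± 0.21, short of the threshold (edgeR adjusted p = 0.0601). With library totals Nr5a2 was called lower at 3 h (-0.66) and 6 h (-0.69) than in sham, and higher at 12 h than at 3 h (0.70, edgeR adjusted p = 0.019, 0.01 and 0.0104). From 6 h to 12 h the difference was 0.43 ± 0.21 and not called (edgeR adjusted p = 0.152). It was 0.73 with library totals and was then called (edgeR adjusted p = 0.01).

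Prox1 (ENSMUSG00000010175, chr1:190118035-190170714, minus strand) was at 24.8, 16.9 and 10.2 FPKM in sham. It was at 24.3, 35.0 and 25.3 FPKM at 3 h, at 26.9, 23.0 and 31.9 FPKM at 6 h and at 27.4, 19.7 and 23.3 FPKM at 12 h. Each time point overlaps sham through sham replicate 1, and all 9 libraries after resection lie above the other sham libraries. Prox1 differed from sham by 0.66 ± 0.27 at 3 h (edgeR adjusted p = 0.0949), 0.63 ± 0.27 at 6 h (0.0845) and 0.43 ± 0.27 at 12 h (0.247). The differences without sham replicate 1 were 1.01, 0.98 and 0.78, and all were called (edgeR adjusted p = 0.00751, 0.00481 and 0.0165). With all libraries and no filter, the 3 h and 6 h differences were 0.72 and 0.66 and were called (edgeR adjusted p = 0.00166 and 0.00299). The call thus depends on sham replicate 1 and on the filter. The no-filter differences were close to the 0.66 and 0.63 above and come from the same libraries. Their smaller p-values come from the unfiltered fit and are not a measure of the spread between these libraries. The antisense genes Prox1os, with 72 to 158 counts per library, and Gm28172, with 2 to 26, overlap Prox1, which had 1652 to 4454.

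**Figure D3:**
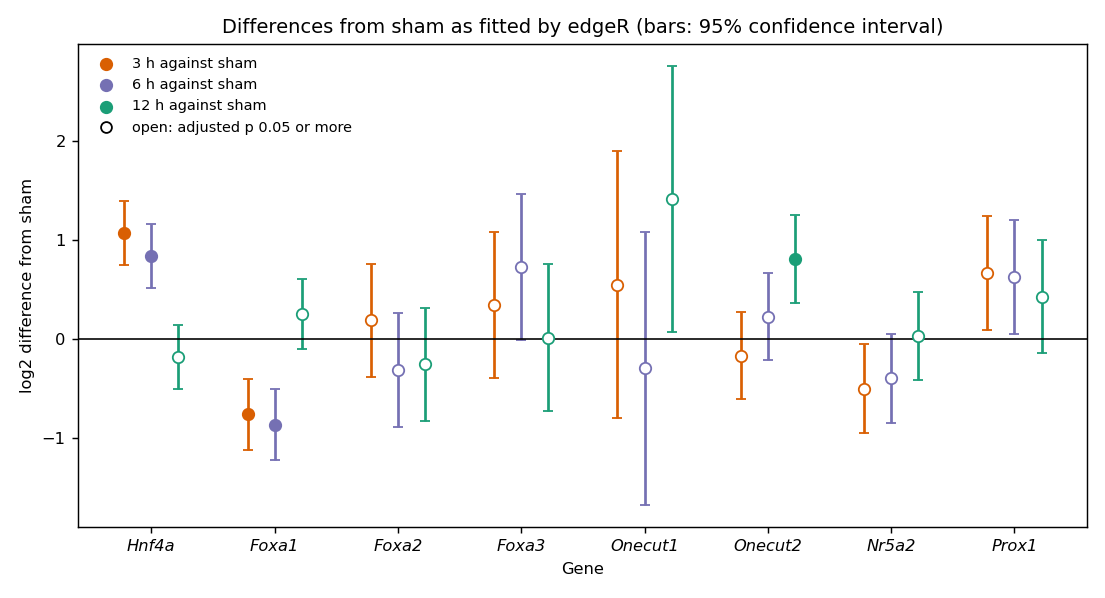
Difference of each gene from sham on the log2 scale (y axis) at 3 h, 6 h and 12 h with 95% confidence intervals from edgeR, filled where the adjusted p was under 0.05. Only Hnf4a and Foxa1 at 3 h and 6 h and Onecut2 at 12 h are filled, and the intervals of Onecut1 and Foxa3 are the widest.

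In the fit of all 12 libraries, the share of the 8 genes that was called was near or below that of all tested genes. At 3 h against sham, 2 of 8 genes were called, against 21.6% of all tested genes, and at 6 h 2 of 8 against 35%. At 12 h against sham 1 of 8 was called, against 28.8%. Between 6 h and 3 h none of 8 was called, against 8.63%. DESeq2 called 0 of 8 there as well, and 0 had an unadjusted edgeR p under 0.05, the lowest being 0.0771 for Onecut2. Between 12 h and 6 h 2 of 8 were called, against 24.7%, and between 12 h and 3 h 3 of 8, against 36%. Groups that do not overlap in FPKM were found for 2 of 8 genes at 3 h against sham (36.4% of tested genes), 3 of 8 at 6 h (43.9%) and 2 of 8 at 12 h (38.6%). They were found for 3 of 8 between 6 h and 3 h (34.6%), and for 5 of 8 both between 12 h and 6 h (46.8%) and between 12 h and 3 h (55.2%). Over all 4 groups, an F-test called Hnf4a, Foxa1 and Onecut2 (edgeR adjusted p = 3.98e-05, 0.00022 and 0.00585), 3 of 8 against 50% of tested genes. The counts against sham without sham replicate 1 were 3, 4 and 4 of 8 at 3 h, 6 h and 12 h, against 23.3%, 42.8% and 46% of tested genes. The median difference of the 8 genes from sham was 0.27, -0.03 and 0.15 at 3 h, 6 h and 12 h, and that of all tested genes -0.02, -0.01 and -0.02.

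The order of levels was led by Hnf4a, Foxa3 and Prox1 in every group. Hnf4a did not overlap Foxa3 in any group, whereas Foxa3 and Prox1 overlapped in sham and at 3 h but not at 6 h or 12 h. In sham the next were Nr5a2, Foxa2, Onecut2, Foxa1 and Onecut1, and each overlapped its neighbour in this order except Foxa1 with Onecut1. Foxa1 was the lowest at 3 h with 3.61 ± 0.800 FPKM, and it overlapped Onecut1 there. At 12 h Onecut2 (12.4 ± 2.04 FPKM) took the fourth place, overlapping Nr5a2 (11.5 ± 0.553).

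For each gene the 3 other tested genes with the most similar course were taken by Pearson r of log2 CPM (counts scaled to library size) over the 12 libraries. These r describe libraries that fall into 4 groups and share depth and scaling. Hnf4a was closest to Tnip2 (r = 0.988), which encodes a binding partner of the NF-kB inhibitor A20, to the tight junction gene Cldn14 (0.980) and to the serine dehydratase gene Sds (0.979). Sds went from 64.7 FPKM in sham to 273 at 3 h, 216 at 6 h and 39.7 at 12 h. As many as 148 genes had r over 0.9 with Hnf4a, 145 with Onecut2, 106 with Nr5a2, 72 with Foxa1 and 33 with Foxa3. For Prox1 it was 1 gene, and for Foxa2 and Onecut1 0. Foxa1 was closest to Vav2 (0.960), Epb41l4b (0.958) and Chek2 (0.955), Onecut2 to Scoc (0.975), Tomm70a (0.970) and Zfp281 (0.967), and Nr5a2 to Oxr1 (0.975), Mzt1 (0.964) and Strbp (0.963). Foxa3 was closest to Ssr4 (0.978), Tsr3 (0.959) and Cope (0.957). Foxa2, Onecut1 and Prox1 had weaker partners, led by Rpl22 (0.863), Pcp4l1 (0.890) and Sptlc2 (0.908). The other partners were Psme2 (0.825) and Rps24-ps3 (0.812) for Foxa2, Dhps (0.882) and Smyd1 (0.878) for Onecut1, and Map2k4 (0.895) and Cmtr2 (0.890) for Prox1. Among the 8 genes themselves the most opposed pairs were Hnf4a with Foxa1 (r = -0.892) and Foxa3 with Nr5a2 (-0.847), and the most alike were Nr5a2 with Onecut2 (0.735). In sham replicate 1 Foxa3 had its lowest and Nr5a2 its highest level of the series (10.7 and 16.1 FPKM). The r of these 2 genes, with each other and with their partners, may therefore lean on that library, which was not tested.

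**Figure D4:**
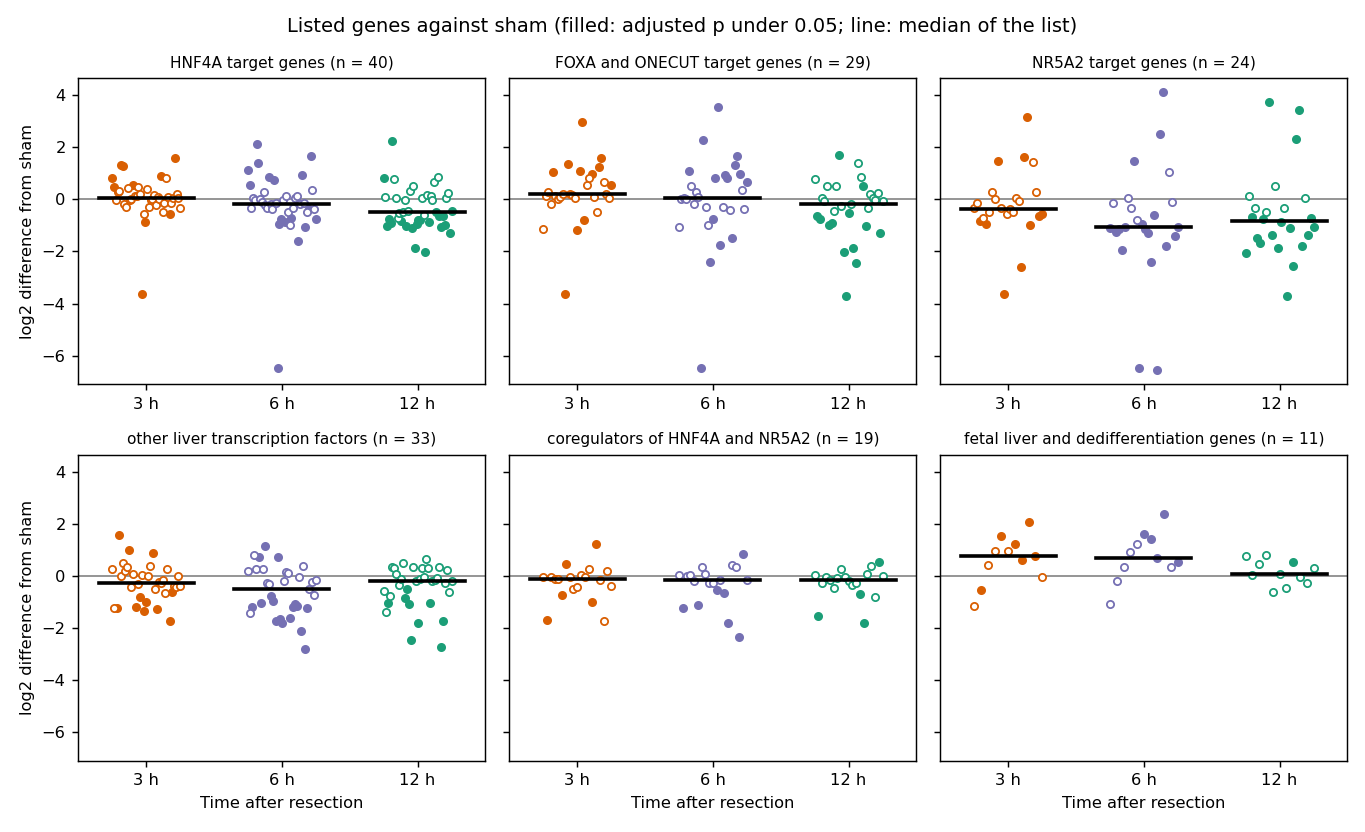
Difference from sham on the log2 scale (y axis) of each tested gene of 6 lists at 3 h, 6 h and 12 h (x axis), filled where the adjusted p was under 0.05, with the list's median as a line. The target gene lists have medians near 0 at 3 h, apart from -0.35 for NR5A2 targets, and below 0 at 12 h. For FOXA and ONECUT targets the 3 h and 12 h medians are the values of Foxa2 and Hnf4a, which are in that list.

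Genes known as targets of HNF4A changed in both directions at 3 h and 6 h, and far more fell than rose at 12 h. Of 40 tested target genes, 7 rose and 3 fell at 3 h, 8 rose and 9 fell at 6 h, and 2 rose and 19 fell at 12 h. For comparison, 9.81% of all tested genes rose and 11.7% fell at 3 h, and 16.8% rose and 18.2% fell at 6 h. At 12 h these shares were 13.5% and 15.3%. They are also the background for the counts of each list and marker set below. The medians of the HNF4A target list were 0.06, -0.16 and -0.50, against -0.02, -0.01 and -0.02 for all tested genes. The first was -0.12 with library totals. Among those that rose were Tat, the tyrosine aminotransferase (1.59 at 3 h and 1.66 at 6 h), Apoa5, an apolipoprotein of triglyceride clearance (1.30 at 3 h), and Apoa4, an apolipoprotein of lipid transport (1.34, 2.11 and 2.24 at 3 h, 6 h and 12 h). Cyp7a1, which encodes the enzyme that starts and limits bile acid synthesis, fell (-3.65 at 3 h and -6.47 at 6 h). At 12 h it was 0.50 from sham, which was not called (edgeR adjusted p = 0.513), and its sham level varied (20.9 ± 16.3 FPKM). The nuclear receptor gene Nr1i3 (CAR) fell by 1.61 at 6 h. At 12 h the falls included G6pc, the glucose-6-phosphatase gene (-2.03), Cyp8b1, a bile acid enzyme gene (-1.89), and Ttr, which encodes transthyretin (-1.29 ± 0.16, edgeR adjusted p = 0.000108). Without sham replicate 1, 16 of the 40 fell at 6 h and 5 rose at 12 h, and with library totals 4 rose at 3 h and 19 fell at 6 h. The 3 h count of rises was also 4 without sham replicate 2 or 3 h replicate 3, and the 12 h count was 4 without sham replicate 3.

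Genes known as FOXA and ONECUT targets changed in both directions at 3 h and 6 h, and more fell than rose at 12 h. Of 29 tested genes, 8 rose and 3 fell at 3 h, and 10 rose and 5 fell at 6 h. At 12 h 2 rose and 11 fell. These genes include Hnf4a, Foxa2 and Onecut1 themselves, with Hnf4a among the rises at 3 h and 6 h. The medians were 0.19, 0.04 and -0.18 at 3 h, 6 h and 12 h. The 3 h median is the value of Foxa2 and the 12 h median that of Hnf4a, so neither is independent of the 8 genes. With library totals 7 rose and 5 fell at 3 h and 8 rose and 8 fell at 6 h, where the median was -0.28. Igfbp1, which encodes a binding protein of insulin-like growth factors, was at 64.6 ± 8.73 FPKM in sham and rose by 2.96 at 3 h and 3.54 at 6 h. It then lay 1.88 below sham at 12 h (log2 difference -1.88 ± 0.29, edgeR adjusted p = 0.000423). Fgb, a fibrinogen chain gene, rose by 1.36, 2.27 and 1.72. Mlxipl, the glucose-responsive factor ChREBP, fell at 12 h (-2.46). Without sham replicate 1, 6 of the 29 rose at 12 h and 8 fell at 6 h.

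Most genes known as NR5A2 targets fell at 6 h and 12 h. Of 24 tested genes 3 rose and 7 fell at 3 h, and 3 rose and 15 fell at both 6 h and 12 h, with medians of -0.35, -1.08 and -0.83. At 3 h 4 genes fell without 3 h replicate 2 or 3, and 12 with library totals. Hsd3b5, a steroid dehydrogenase gene, fell (-2.59 at 3 h, -6.56 at 6 h and -2.55 at 12 h). The rises were those of Nnmt, the nicotinamide methyltransferase (3.17, 4.11 and 3.45), Mat1a, the S-adenosylmethionine synthetase (1.64, 2.49 and 2.30), and Ccne1, or cyclin E1 (1.46, 1.48 and 3.74). The lists share genes, Cyp7a1 and Apoa1 among them, and were drawn from general knowledge of these factors rather than from binding data.

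Of the other liver transcription factors, 33 tested, 3 rose and 8 fell at 3 h, 3 rose and 14 fell at 6 h, and none rose and 9 fell at 12 h, with medians of -0.26, -0.50 and -0.20. Srebf1, which drives fatty acid synthesis, fell at 3 h, 6 h and 12 h (-1.74, -2.81 and -2.73). Nr2f2 (COUP-TFII), a nuclear receptor of venous and mesenchymal cells as well as hepatocytes, fell at 3 h (-1.25), as did Nfib, a nuclear factor I gene (-1.34), and Cebpb, a C/EBP gene of the early response to resection, rose by 1.56 (edgeR adjusted p = 0.0478). At 6 h the falls of Nr0b2 (-1.79) and Mlxipl (-1.74) were among the largest. At 12 h they were joined by Stat5b (-1.71), the growth hormone signal transducer. The count of falls at 6 h was 20 with library totals, and 5 genes fell at 3 h without 3 h replicate 3. Of the 33, 2 rose at 12 h without sham replicate 1.

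Of the coregulators of HNF4A and NR5A2 most did not pass the test. Of 19 tested genes, 2 rose and 3 fell at 3 h, and 1 rose and 6 fell at 6 h. At 12 h 1 rose and 3 fell. The medians were -0.12, -0.15 and -0.14 at 3 h, 6 h and 12 h. Of all tested genes 9.81% rose and 11.7% fell at 3 h, and 16.8% rose and 18.2% fell at 6 h. At 12 h 13.5% rose and 15.3% fell. Nr0b2 (SHP), which represses both nuclear receptors, was at 30.0 ± 8.84 FPKM in sham and fell at all 3 times (-0.99, -1.79 and -1.79). Cited2, which encodes a partner of the coactivators CBP and p300, fell likewise (-1.67, -1.21 and -1.54), and Nrip1, a corepressor, rose by 1.22 at 3 h. Kat2b, an acetyltransferase gene, fell at 3 h and 6 h (-0.75 and -1.12). Ppargc1b fell by 2.33 at 6 h, and Prmt1 rose by 0.55 at 12 h. With library totals the falls numbered 7 at 3 h and 10 at 6 h, and 3 genes fell at 6 h without 6 h replicate 2. None rose at 3 h with library totals, nor without sham replicate 2, sham replicate 3, 3 h replicate 1 or 3 h replicate 2. The rise at 12 h was lost with library totals, without sham replicate 3 and without each of the 12 h replicates.

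Genes of fetal liver and of dedifferentiation rose in part at 3 h and 6 h. Of 28 listed genes 27 were in the table and 11 were tested, the others having under 1 FPKM in most libraries. Of these 5 rose and 1 fell at 3 h, 5 rose at 6 h and 1 rose at 12 h, with medians of 0.77, 0.67 and 0.08. The fall was that of Ank (-0.54), named after its value was seen. Tead1, a partner of YAP, rose by 2.08 and 2.40 at 3 h and 6 h, and Sox9, a bile duct and progenitor gene, by 1.23 and 1.41. The fetal serum protein gene Afp, named after its values were seen, was at 0.993 ± 0.632 FPKM in sham and 0.457 ± 0.156 at 3 h, a difference of -1.14 ± 0.47 that was not called (edgeR adjusted p = 0.101). Without 3 h replicate 2 only 1 of the 11 rose at 3 h, and with library totals 3 rose and 2 fell at 6 h. At 12 h 3 rose and 1 fell without sham replicate 1, and none rose without sham replicate 3, 12 h replicate 2 or 12 h replicate 3. Vim, an intermediate filament gene, and Ctgf, a YAP target, rose at 3 h by 0.77 and 1.54. Spp1 rose by 0.60, 0.67 and 0.53, and Epcam, an epithelial adhesion gene, rose by 1.61 at 6 h.

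Markers of cell types other than hepatocytes that can hold these factors were read in the same libraries. Bile duct cells, which express Onecut1 and Foxa2 too, had 6 of 20 markers tested, 2 rising and 1 falling at 3 h, 3 and 2 at 6 h, and 1 and 2 at 12 h. Sox9, Spp1 and Epcam are also in the list of fetal liver genes, so their rises are counted in both lists. None rose at 3 h without 3 h replicate 2, and none rose at 12 h without sham replicate 3, 12 h replicate 2 or 12 h replicate 3. The summed level of the 20 was 31.3 to 33.6 FPKM in sham, between 39.1 and 48.8 at 3 h, between 39.3 and 49.9 at 6 h and between 32.0 and 39.5 at 12 h. The 6 tested markers had median differences from sham of 0.41, 0.08 and -0.44 at 3 h, 6 h and 12 h. At 12 h they ranged from -3.01 to 0.53, so the sum does not describe each marker. Krt19, a defining bile duct gene, was at 0.643 ± 0.147 FPKM in sham and 0.464 ± 0.246 at 12 h, and Krt7 at 0.0897 ± 0.02 and 0.179 ± 0.0338. Lymphatic endothelial cells, which express Prox1, had 5 of 10 markers tested, 2 rising at 3 h and at 6 h and 1 rising and 2 falling at 12 h. Leaving out single libraries, the rises numbered 1 to 3 (3 h), 1 to 2 (6 h) and 0 to 1 (12 h). Their sum was 6.88 to 9.45 FPKM in sham, between 11 and 19.1 at 3 h, between 9.18 and 14.8 at 6 h and between 6.66 and 7.54 at 12 h. Lyve1, which sinusoidal endothelium shares, rose by 2.26 at 3 h. None of the bile duct or lymphatic markers was at 0 in every library. The neutrophil sum was 1.93 to 2.65 FPKM in sham, between 13.9 and 15.6 at 3 h, between 10.2 and 21.0 at 6 h and between 6.92 and 9.22 at 12 h, with 4 of 14 markers tested and Mpo at 0 in all libraries. The part of these cells in the differences of the 8 genes was not tested. Hepatocyte markers, 21 of 21 tested, summed to 48539 to 55969 FPKM in sham, between 55704 and 69486 at 3 h, between 58163 and 62260 at 6 h and between 39686 and 40994 at 12 h, so the tissue label holds. Of them 4 rose at 3 h, 5 rose and 1 fell at 6 h, and 3 rose and 8 fell at 12 h. At 6 h 4 fell without sham replicate 1 and 5 with library totals. Of 13 tested macrophage markers 2 rose at 3 h, 2 rose and 1 fell at 6 h, and 2 rose and 6 fell at 12 h. Leaving out single libraries, 1 to 4 rose at 3 h and 1 to 3 fell at 6 h, where library totals gave 6 falls. Of 13 stellate cell and fibroblast markers 4 rose at 3 h, none was called at 6 h, and 3 rose and 1 fell at 12 h. The 3 h rises numbered 0 without 3 h replicate 2, 1 without sham replicate 2 or with library totals and 2 without sham replicate 3. In the absence of sham replicate 1, 3 rose at 6 h and 5 fell at 12 h. Of 14 sinusoidal endothelial markers 6 rose at 3 h, 3 rose and 2 fell at 6 h, and 3 rose and 3 fell at 12 h. At 3 h 3 of these rose with library totals, without sham replicate 1 or 2, or without 3 h replicate 2, and at 6 h library totals gave 4 falls.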

How the data were processed

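RNA-seq of poly(A) RNA from mouse liver was used, with 12 libraries in all and 3 per group, grouped by the labels. Per the submitters' processing notes, the build was GRCm38 and the tools HISAT2 2.0.5, featureCounts 1.5.0-p3, fastp, CASAVA 1.8 and DESeq2 1.20.0; whether counting used the strand is not given in the sources used here. The authors deposited raw counts per gene, with totals of 15573405 to 17199639 per library. They also deposited FPKM, which equal the count divided by gene length and a scaled library size, as checked on the values, and were used for levels and for the filter.

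Counts were tested with edgeR 4.0.16 (R 4.3.3), TMM scaling and quasi-likelihood contrasts in 1 model of 4 groups on 12 libraries, two-sided, with Benjamini-Hochberg adjustment over the 11451 of 54532 genes with 1 FPKM or more in at least 3 libraries. These hold at least 99.1% of the counts of each library. The procedure was also run on simulated counts for 3 h against sham. Each gene had the same spread in all groups there, so the run does not cover the less alike sham libraries. Alternatives were median-ratio scaling, library totals, no filter, DESeq2 1.42.0, limma 3.58.1 on log2(FPKM + 1) and log2(FPKM + 0.1), a block for the replicate number, a fit on only the 6 libraries compared, leaving out each library and, chosen after seeing the data, leaving out both sham replicate 1 and 6 h replicate 3.

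Genes named are the 8 members, the 3 genes most like each by Pearson r of log2 CPM, genes that overlap a member or start within 2000 bases of its start, and in each list up to 4 called genes with the largest difference from sham. Defining markers were added, and some genes that the rule names are not reported here. The members and lists were chosen with earlier results of these data known, and the lists come from general knowledge. Intervals are 95% confidence intervals. Promoter windows came from RefSeq (GRCm38.p6), with 7 of 8 genes matched.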

Additional observations from a re-analysis of the deposited data

Results flagged for a closer look

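For 3 of the 8 genes the effect at 12 h differed from the effect at 3 h, both being taken against the same sham libraries. The test of that difference is the contrast of 12 h against 3 h, which contains no sham library. It called 36% of all tested genes, so 3 of 8 is near the general share. For Hnf4a the 12 h effect minus the 3 h effect was -1.25 (log2; edgeR adjusted p = 7.26e-05), with all 3 libraries at 12 h below all 3 at 3 h. For Foxa1 it was 1.01 (edgeR adjusted p = 0.000644), with all 3 libraries at 12 h above those at 3 h. For Onecut2 it was 0.97 (edgeR adjusted p = 0.0032), again with no overlap. In each case the differences from sham had opposite signs at the 2 times, although only Hnf4a and Foxa1 at 3 h and Onecut2 at 12 h passed the test against sham. For Onecut2 the 3 h difference of -0.17 was 0.13 without sham replicate 1, so its signs were then no longer opposite.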

How the results depend on the processing

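Of the 10 calls of the 8 genes, 9 held under every alternative; the exception was Onecut2 at 12 h against sham, which was 0.67 (edgeR adjusted p = 0.0561) without 12 h replicate 3. Of the 38 differences not called, 10 kept their sign and stayed uncalled throughout. The counts of these genes called at 6 h and 12 h against sham, and between 6 h and 3 h, were 4, 2 and 1 with no filter. Leaving out both sham replicate 1 and 6 h replicate 3 gave 4 at 6 h and 4 at 12 h against sham and 5 at 12 h against 6 h, which was also 5 with library totals, 5 with no filter and 6 with only the 6 libraries compared. At 12 h against 3 h it was 5 with only those 6. The calls over all genes moved as well. With library totals 3683 genes were called at 12 h against 6 h, against 2828 in the main fit. With no filter, which tests more genes, 4664 were called at 6 h against sham, against 4004. The share of all genes called is not given for each of these settings, so the counts are not a result about the 8 genes. Over all genes, 6 h against 3 h gave 1492 calls with no filter, 1540 with DESeq2 and 1485 with only 6 libraries, against 988. The 3 h against sham count was 1532 with only 6 libraries against 2468, and the 12 h against sham count 5494 without both libraries against 3298.

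Leaving out single libraries, the calls against sham numbered 1764 to 2672 (3 h), 3305 to 4900 (6 h) and 2112 to 5263 (12 h), with 2 to 4, 2 to 4 and 0 to 4 of the 8. It gave 400 to 714 for 6 h against 3 h, 1853 to 2274 for 12 h against 6 h and 2820 to 3332 for 12 h against 3 h, with 0 to 0, 2 to 3 and 3 to 4 of the 8.

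Signs that turned all belonged to differences not called in the main fit. One turned value was itself called, that of Foxa3 at 12 h without sham replicate 1 (-0.39, edgeR adjusted p = 0.0254). With library totals Onecut2 at 6 h was -0.071, Foxa3 at 12 h -0.019, Nr5a2 at 6 h against 3 h -0.024 and Prox1 at 12 h against 6 h 0.11. Without sham replicate 1, alone or with 6 h replicate 3, Foxa3 was -0.060 at 3 h and -0.39 at 12 h and Onecut2 0.13 at 3 h. Nr5a2 at 12 h was -0.094 without sham replicate 2 and -0.13 without sham replicate 3, and Onecut1 at 6 h was 0.92 without sham replicate 3 and 0.088 without 6 h replicate 3. The ranges over single libraries left out ran from -0.022 to 0.44 for Foxa2 and -0.060 to 0.61 for Foxa3 at 3 h, -1.28 to 0.92 for Onecut1 at 6 h, and -0.39 to 0.28 for Foxa3 and -0.13 to 0.39 for Nr5a2 at 12 h against sham. They ran from -0.26 to 0.062 for Foxa1, -0.014 to 0.18 for Nr5a2 and -0.17 to 0.15 for Prox1 at 6 h against 3 h, and from -0.11 to 0.27 for Foxa2 at 12 h against 6 h. Without 3 h replicate 1 Foxa2 at 3 h was -0.022 and Nr5a2 at 6 h against 3 h -0.014. For 6 h against 3 h, Foxa1 was 0.062 and Prox1 0.15 without 3 h replicate 2, and Prox1 0.073 without 6 h replicate 2. Foxa2 at 12 h against 6 h was -0.072 without 6 h replicate 1, -0.014 without 12 h replicate 2 and -0.11 without 12 h replicate 3, which also put Foxa3 at 12 h at -0.056. The cause of these changes was not tested.

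With library totals the median gene lay at a shift of -0.20 at 3 h, -0.32 at 6 h and -0.03 at 12 h against sham. Higher genes then made up 25% and 22% of the calls at 3 h and 6 h, against 45.5% and 48.1%. They made up 29.9% for 6 h against 3 h, 84.8% for 12 h against 6 h and 69.7% for 12 h against 3 h, against 51.5%, 49.0% and 49.5%. The replicate numbers do not pair the libraries: same-numbered libraries correlated at -0.255 to 0.173 in their deviations from the group means, and 1 of 12 was closest to its own number. With the replicate number as a block, the counts of the 8 genes were unchanged at 2, 2, 1, 0, 2 and 3, and 2195, 3746, 2974, 742, 2514 and 3764 genes were called (against sham at 3 h, 6 h and 12 h, then 6 h against 3 h, 12 h against 6 h and 12 h against 3 h). Onecut1 had the lowest count of the 8 genes in any library, 43.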
